A study of Homo sapiens with 9 samples.

Results

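The results below set the 3 libraries numbered 1 against the 6 libraries numbered 2 or 3 in a 9-library RNA-sequencing study of U2OS cells, a human osteosarcoma line. The libraries were taken by the replicate number in their labels, 1 library from each of 3 siRNA groups on one side and 2 from each group on the other, and every gene with enough counts was tested. The groups were siNS (a non-silencing siRNA), siNFKB2 (siRNA against NFKB2) and siRELB (siRNA against RELB). Every library, the siNS controls included, came from cells grown in high-glucose DMEM with serum, transfected with siRNA at 75 nM by a lipid reagent and lysed 48 h later, and was made from oligo-dT selected RNA. The labels give no further treatment, no number of siRNA sequences per target and no meaning for the replicate number. Separate cultures are not named, so p-values here reflect only how far these libraries scatter, and that scatter may be technical. A culture round, a preparation round and a sequencing round cannot be told apart here, and in bulk RNA fewer cells of a type cannot be told apart from less RNA per cell.

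Cells of one line that are plated and transfected on separate occasions can differ in density, growth state, nutrient and metal supply, and stress. Oligo-dT libraries capture RNAs with a poly(A) tail, and the share of short, GC-rich or nucleus-retained RNAs captured is known to vary with RNA handling and library preparation. NFKB2 encodes p100, the precursor of p52, and RELB encodes its usual dimer partner; together they form the output of the non-canonical NF-kB pathway, which acts beside the canonical pathway on cytokine, chemokine and survival genes.

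Total counts per library ran from 15011789 to 19279572, and the library numbered 1 was the deepest of its group in all 3 groups (18842542 to 19279572). The siRNA targets were low in the groups named for them, with NFKB2 in siNFKB2 at 6.52%, 18.1% and 41.3% of the siNS library of the same number (1, 2 and 3) and RELB in siRELB at 15.5%, 15.4% and 15.7%. Mitochondrial rRNA took 0.406%, 0.519% and 0.379% of the counts in the number 1 libraries of siNS, siNFKB2 and siRELB and 0.630% to 2.68% in the other 6, with siNS 2 (1.33%) and siNFKB2 3 (2.68%) the highest of their groups (exact permutation within siRNA groups, two-sided p = 0.0741, adjusted p = 0.111 over 6 library measures). The 100 most abundant genes took 15.1% ± 0.527 (SD, n = 3) of the counts in number 1 and 16.8% ± 1.03 (SD, n = 6) in the others, and cytosolic ribosomal protein genes 2.91% ± 0.211 and 3.54% ± 0.463 (each exact permutation p = 0.037, the smallest this design allows, adjusted p = 0.111). Of 15 bone-lineage markers 8 averaged below 1 CPM (counts scaled to a fixed library total after TMM), among them SP7, BGLAP, IBSP and SOST; RUNX2, ALPL and SPP1 averaged 8.63, 11 and 15.7 CPM. The summed levels of 4 marker lists were 87.0 to 124 CPM in number 1 and 77.4 to 165 in the others for bone lineage, 579 to 642 and 652 to 942 for epithelial cells (8 of 13 markers below 1 CPM, CLDN7 listed at 0), 79.2 to 108 and 49.2 to 94.9 for blood cells (7 of 12 below 1 CPM, CD3E and LYZ among those listed at 0), and 137 to 183 and 110.9 to 197 for neural cells (3 of 9 below 1 CPM). KRT8 and KRT18, at means of 223 and 471 CPM, made up most of the epithelial sum. LCP1 and CD68, at 53.5 and 18.4 CPM, made up most of the blood sum. The part of these markers and of the mitochondrial rRNA share in the results below was not tested, beyond the fits without siNS 2 and siNFKB2 3 and with the share as a covariate.

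Genes were compared by edgeR's quasi-likelihood test with the siRNA group as a covariate and are called at a Benjamini-Hochberg adjusted p below 0.05. Differences are log2 of number 1 over numbers 2 and 3, given with a standard error (SE). Of 14815 genes tested, 5252 were called (35.5%), of which 2773 were higher in the libraries numbered 1 (18.7% of genes tested) and 2479 lower (16.7%). Most differences were modest, with a median size of 0.47 on the log2 scale among the called genes, while 89 genes were more than 2-fold higher and 404 more than 2-fold lower. The direction was shared by the siRNA groups for most of them: 5145 called genes had the same sign in all 3 groups, and in 4785 (32.3% of genes tested) the library numbered 1 lay on the same side of both others in every group. The call uses the 3 groups together, which favours a shared direction, so these counts are no separate result. Without any test, 3505 genes (23.7%) had number 1 above both others in every group and 2944 (19.9%) below both. Numbers 2 and 3 were compared by the same test, which called 0 genes (0%). It gave 106 genes at an unadjusted p below 0.05, against 6776 for the comparison with number 1. DESeq2 and limma-voom also called 0, with 39 and 125 at that unadjusted level. The test sees only a difference common to the groups, so 0 calls do not make numbers 2 and 3 alike. Between numbers 2 and 3 the chi-square of counts per degree of freedom was 16.8 in siNS, 18.3 in siNFKB2 and 3.31 in siRELB. Pairs of a group that held number 1 had 23.4 to 83.5.

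The siRNA group accounted for 57.6% of the total variance of log2 CPM over tested genes, number 1 against the rest for 21.2%, and number 2 against 3 for 3.15%. Of the variance within siRNA groups, number 1 took 50%, a difference between numbers 2 and 3 common to the groups 7.44%, and the remainder, which includes differences between numbers 2 and 3 that vary by group, 42.5%. Number 1 libraries lay at 26.8 to 35.6 on the second principal component, which held 24.7% of the variance, and the other 6 at 4.9 and below. The typical gene varied by a biological coefficient of variation of 0.111 between libraries once number 1 had its own term and 0.184 without it. Without siNS 2 and siNFKB2 3, a fit added after seeing the data, 3992 genes were called, 3895 of them among the 5252. Leaving out siNS 1 left 2643 calls, leaving out every number 2 library 3275 and every number 3 library 2227. The call count depended on the siRNA term (4 genes called without it) and on the mitochondrial rRNA share: with that share as a covariate 1 gene was called. The share moved with the number, being lowest in the number 1 library of each group.

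**Figure D1:**
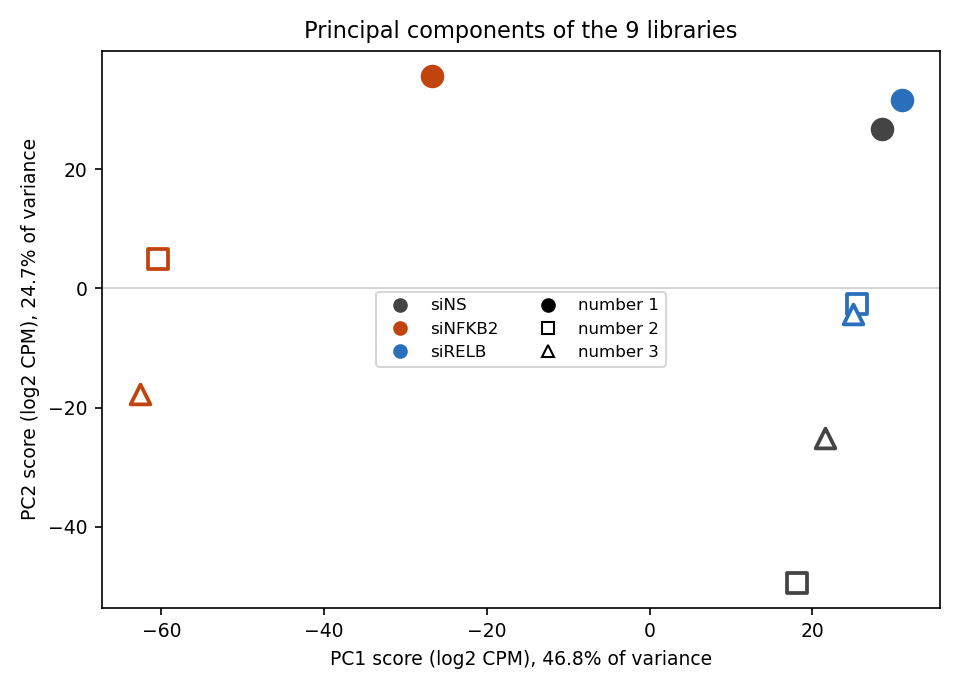
Principal components of log2 CPM over the tested genes, 1 point per library, coloured by siRNA group and shaped by replicate number. The first component (46.8% of the variance) separates siNFKB2 from the other groups, and the 3 libraries numbered 1 sit at 26.8 to 35.6 on the second (24.7%), above the other 6.

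The largest rises in the number 1 libraries included genes of cell engulfment, matrix signalling, pigment and lysosome biology, cystine uptake and mesenchymal identity. The largest rises and falls were chosen among genes with number 1 on the same side of both others in every group. That side is therefore set by the choice and is no separate result. Values for each gene are given for libraries 1, 2 and 3 of a group in that order. GULP1 (chr2:188291669-188595931, plus strand), an adaptor protein for the engulfment of dying cells, was measured at 56.1, 13.7 and 21.5 CPM with siNS, 77.9, 25.2 and 24.7 with siNFKB2, and 43.2, 18.7 and 16.6 with siRELB. All 3 number 1 libraries stood above all 6 others (log2 difference 1.54 ± 0.12 SE, adjusted p = 9.1e-05). CCN3, a matricellular protein of the CCN family, was read at 27.9, 11.9 and 13.2 CPM with siNS, 52.1, 15 and 12.4 with siNFKB2, and 38.5, 16.8 and 17.2 with siRELB. Again the number 1 values did not overlap the others (log2 difference 1.43 ± 0.13 SE, adjusted p = 9.21e-05). GPNMB (chr7:23235967-23275108, plus strand), a transmembrane glycoprotein of melanosomes and lysosomes, stood at 90.5, 47.6 and 46.1 CPM with siNS, 99.4, 24.7 and 24.3 with siNFKB2, and 99, 51.8 and 48.7 with siRELB. Its number 1 values were nearly equal across groups and above every other library (log2 difference 1.33 ± 0.15 SE, adjusted p = 0.000228), and the drop in numbers 2 and 3 was deepest in siNFKB2.

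SLC7A11 (chr4:138164097-138242349, minus strand), the cystine importer that supplies glutathione synthesis, was at 41.8, 13.9 and 13.4 CPM with siNS, 133, 72.4 and 64.5 with siNFKB2, and 86.8, 41 and 41.9 with siRELB. By the choice of genes the number 1 library was the highest of each group, although siNFKB2 2 and 3 exceeded siNS 1 (log2 difference 1.20 ± 0.11 SE, adjusted p = 9.21e-05). SNAI2, a transcription factor of mesenchymal cells, was at 16.6, 9 and 9.11 CPM with siNS, 12.7, 4.06 and 4.57 with siNFKB2, and 17.6, 10.5 and 9.3 with siRELB, with all number 1 libraries above all others (log2 difference 1.06 ± 0.14 SE, adjusted p = 0.0004). The further genes among the 15 largest rises were PRKG1 (the cGMP-dependent kinase), the cadherin FAT4, the receptor EPHA5, ZBTB41, PABPC4L, OGFRL1, SPIN4, AIDA, C5orf51 and LCAL1, with log2 differences of 1.08 to 1.42.

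**Figure D2:**
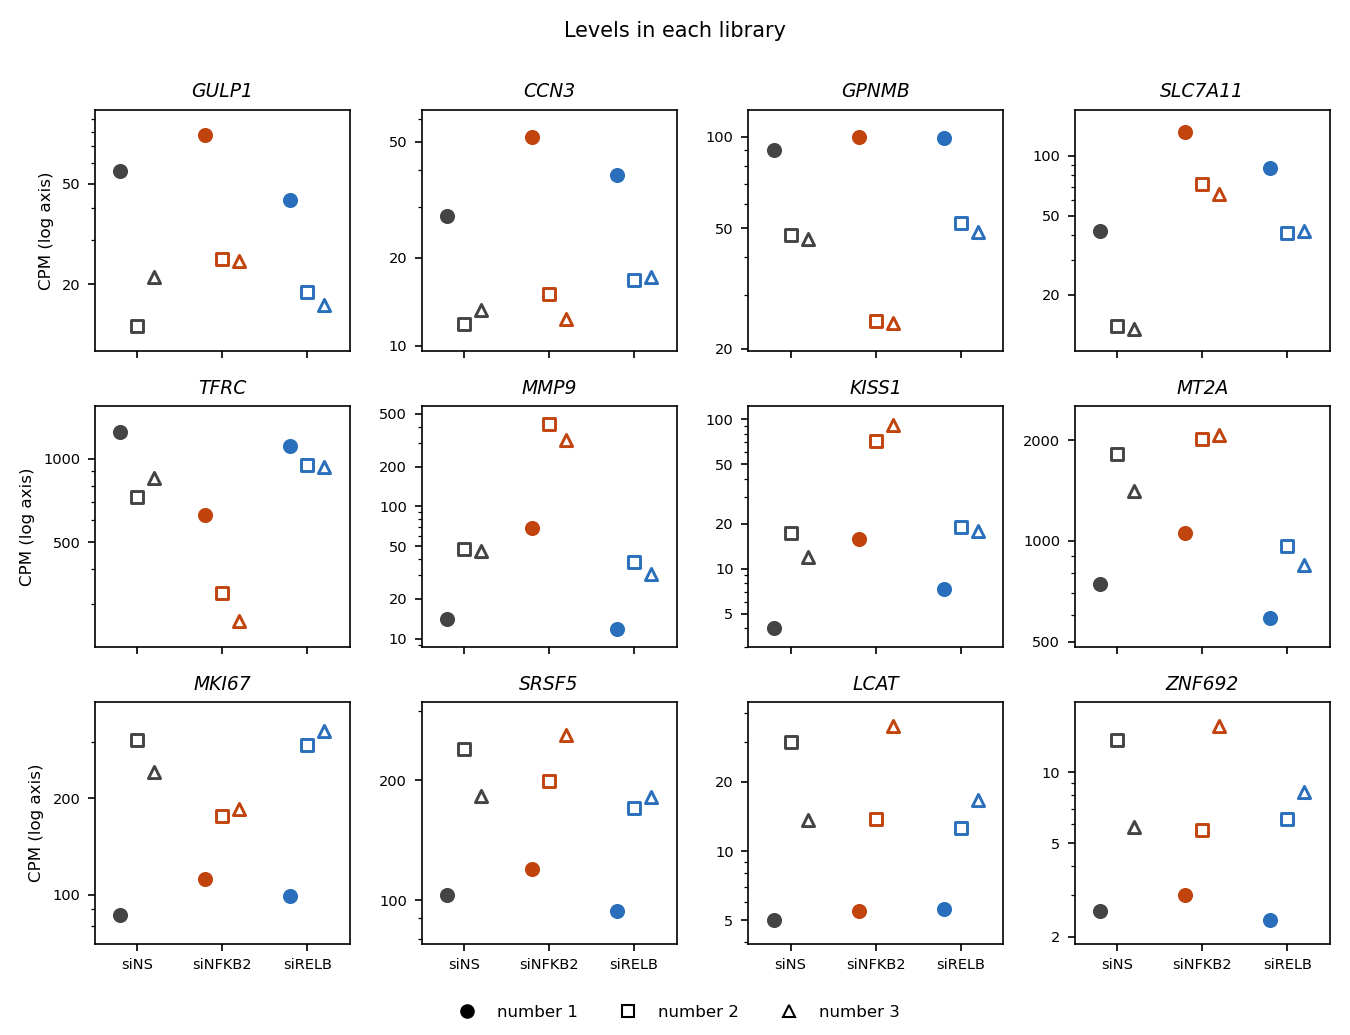
CPM (log axis) of 12 genes in each of the 9 libraries by siRNA group, with filled circles for number 1, open squares for number 2 and open triangles for number 3. The filled circle is the highest of its group for GULP1, CCN3, GPNMB, SLC7A11 and TFRC and the lowest for the other 7, in all 3 groups. GULP1, CCN3, GPNMB, SLC7A11, MMP9, KISS1, LCAT and ZNF692 were chosen for having such a side in every group.

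Falls reached further than rises, and 2 of the largest were in genes of invasion and signalling. These too were chosen with number 1 lowest in every group. MMP9 (chr20:46008908-46016561, plus strand), the gelatinase that cleaves basement-membrane collagen, was at 14.1, 47.6 and 45.7 CPM with siNS, 68.6, 418 and 317 with siNFKB2, and 11.8, 38 and 30.7 with siRELB. Number 1 was the lowest of each group by several-fold while the siNFKB2 libraries as a whole stayed high (log2 difference -1.93 ± 0.16 SE, adjusted p = 9.1e-05). KISS1 (chr1:204190341-204196486, minus strand), the kisspeptin precursor first known as a metastasis suppressor, was measured at 4, 17.4 and 12 CPM with siNS, 15.9, 71 and 90.9 with siNFKB2, and 7.33, 19.1 and 17.8 with siRELB. By that choice number 1 was again lowest in each group (log2 difference -1.88 ± 0.19 SE, adjusted p = 0.000154). CSF2, the cytokine GM-CSF, was at 2, 3 and 3.35 CPM with siNS, 6.92, 40.3 and 47 with siNFKB2, and 1.18, 2.6 and 2.57 with siRELB. The gap was widest in siNFKB2, where the gene was most abundant (log2 difference -1.80 ± 0.30 SE, adjusted p = 0.00108). MMP9 overlaps the antisense gene SLC12A5-AS1 over 18.4% of its length, and the labels do not state whether counting used strand.

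LCAT and ZNF692, also among the largest falls, had number 1 values close to each other in the 3 groups. LCAT, the plasma enzyme that esterifies cholesterol, was at 5, 30 and 13.6 CPM with siNS, 5.48, 13.8 and 35.1 with siNFKB2, and 5.58, 12.6 and 16.7 with siRELB. The number 1 libraries were alike in the 3 groups and below all others, while siNS 2 exceeded siNS 3 and siNFKB2 3 exceeded siNFKB2 2 (log2 difference -1.88 ± 0.32 SE, adjusted p = 0.00116). ZNF692, a zinc-finger factor, was at 2.58, 13.8 and 5.87 CPM with siNS, 3.01, 5.69 and 15.7 with siNFKB2, and 2.36, 6.34 and 8.26 with siRELB, in the same order (log2 difference -1.79 ± 0.33 SE, adjusted p = 0.00189). FAR2P1, a pseudogene of FAR2 that may share reads with it, was at 2.26, 13.1 and 3.9 CPM with siNS, 2.63, 4.18 and 19.1 with siNFKB2, and 1.64, 6.45 and 9.14 with siRELB and showed that order once more (log2 difference -2.08 ± 0.47 SE, adjusted p = 0.0048). The rest of the 15 were GOLGA8B, GCNA, MICAL1, KLHL17, MIR34AHG, STAG3L5P-PVRIG2P-PILRB, SNHG25, FAM95A and LOC150776, at -1.61 to -1.80. GOLGA8B belongs to a family of near-identical copies, STAG3L5P-PVRIG2P-PILRB overlaps PILRB and SNHG25 overlaps SNORA50C on the same strand, so their counts are uncertain.

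That order, siNS 2 above siNS 3 together with siNFKB2 3 above siNFKB2 2, is also the order of the mitochondrial rRNA share. It was present in 13 of the 15 largest falls and 1 of the 15 largest rises, in 1321 of the 2479 genes called lower (53.3%), in 216 of the 2773 called higher (7.79%) and in 4205 of all 14815 genes (28.4%). The difference of number 1 itself does not enter this order, which compares only numbers 2 and 3. The 2 largest falls without it were MMP9 and CSF2. With the mitochondrial rRNA share as a covariate, the log2 differences of LCAT, ZNF692 and FAR2P1 were -0.55, -0.43 and -0.09. Those of MMP9, CSF2 and KISS1 were -2.03, -1.50 and -1.37 in that fit, and that of GULP1 was 1.23. Of these genes only MMP9 kept its call there. Why the orders match was not tested.

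The mitochondrial rRNA and tRNA entries that could be tested fell in the number 1 libraries, and 11 of 19 tested genes on a list of nuclear-retained and snoRNA host RNAs fell as well. RNR2, the large mitochondrial rRNA, was at 3265, 10936 and 5150 CPM with siNS, 4377, 8855 and 22636 with siNFKB2, and 2990, 5032 and 6639 with siRELB (log2 difference -1.36 ± 0.29 SE, adjusted p = 0.00356). Number 1 was the lowest library of each group, and siNFKB2 3 the highest of all. Of 2 mitochondrial rRNA and 22 tRNA entries, 17 passed the count filter and all 17 fell, by log2 differences of -1.71 to -1.15, with number 1 the lowest library of every group in 16. These RNAs have short or no poly(A) tails, and oligo-dT selection leaves a variable remainder of them.

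The list of nuclear-retained and snoRNA host RNAs held 21 genes, of which 19 were tested. Of these 11 were called lower and 2 higher, with a median difference of -0.41, beside 16.7% lower, 18.7% higher and a median of 0.01 over all genes tested. SNHG12, a host transcript of small nucleolar RNAs, was at 6.52, 23 and 13.2 CPM with siNS, 5.05, 8.06 and 17.2 with siNFKB2, and 5.12, 11.4 and 13.6 with siRELB. Number 1 lay below every other library (log2 difference -1.36 ± 0.23 SE, adjusted p = 0.00126). SNHG15 and SNHG17 fell by 0.78 and 1.14 on the log2 scale. NORAD, a cytoplasmic long noncoding RNA that binds Pumilio proteins, rose and was at 345, 179.7 and 256 CPM with siNS, 291, 194 and 175 with siNFKB2, and 370.2, 261 and 268 with siRELB, number 1 above all others (log2 difference 0.60 ± 0.10 SE, adjusted p = 0.00106). NEAT1, the scaffold of paraspeckles, chosen here after its values were seen, was at 124, 417 and 240.1 CPM with siNS, 152, 183 and 432 with siNFKB2, and 86.4, 179.8 and 275 with siRELB, with the 3 number 1 libraries below the other 6 (log2 difference -1.27 ± 0.25 SE, adjusted p = 0.00228). Among 89 annotated snoRNA genes tested, 24 were called lower and 2 higher (median -0.40); 68 of the 89 showed the library order of the mitochondrial rRNA share, as did 14 of the 19 in the host list and all 17 mitochondrial RNAs.

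Splicing factors were split. Shares over all genes tested were 16.7% lower and 18.7% higher. The list had 25 genes, and of 24 tested 8 were called lower and 3 higher, with a median of -0.09. SRSF5, an SR protein whose own transcript is regulated through retained introns and poison exons, was at 103, 240.4 and 183 CPM with siNS, 119.9, 199.7 and 259.9 with siNFKB2, and 93.9, 171 and 182 with siRELB. The number 1 libraries were close to each other and below all others (log2 difference -0.96 ± 0.11 SE, adjusted p = 0.00022). LUC7L3, a U1-associated splicing factor, was at 72.5, 219 and 142 CPM with siNS, 94.1, 153 and 255 with siNFKB2, and 73.1, 124 and 141 with siRELB, also without overlap (log2 difference -1.1 ± 0.17 SE, adjusted p = 0.000769). The kinase CLK4, which phosphorylates SR proteins, fell by 1.1 and PNISR by 0.58. The other 4 lower members were SRSF4, SRSF6, CLK1 and RBM39, and the 3 higher SRSF1, HNRNPH1 and SF3B1, named after their values were seen. With the trend in GC content and length removed, 14 of the 24 were lower and 2 higher, median -0.31, so the split leaned further down on that scale. All 13496 genes in that fit had 1741 lower and 1995 higher.

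NF-kB target genes fell more than they rose, and the pathway's own genes were mixed. Among all genes tested, 16.7% were lower and 18.7% higher. Of 30 listed targets 23 were tested, 10 were called lower and 2 higher, and the median was -0.46, with -0.21 in siNS, -0.79 in siNFKB2 and -0.30 in siRELB. CXCL8, the neutrophil chemokine IL-8, was at 4.84, 6.19 and 7.19 CPM with siNS, 41, 118 and 117 with siNFKB2, and 14.6, 38.6 and 35 with siRELB. Number 1 was lowest in each group, by little in siNS, where the gene was scarce, and by more in the knockdown groups (log2 difference -1.21 ± 0.15 SE, adjusted p = 0.000378). LIF, a cytokine of the IL-6 family, was at 47.3, 85.2 and 68.3 CPM with siNS, 61.7, 127 and 169 with siNFKB2, and 51.5, 77.5 and 85.2 with siRELB, all number 1 libraries below all others (log2 difference -0.87 ± 0.13 SE, adjusted p = 0.000769). MMP3, the matrix protease stromelysin-1, moved the other way and was at 226, 173 and 173 CPM with siNS, 1384, 851 and 632 with siNFKB2, and 163, 114 and 112 with siRELB (log2 difference 0.61 ± 0.11 SE, adjusted p = 0.00128). The other rising member was SOD2, the mitochondrial superoxide dismutase, named after its value was seen. Without the siNFKB2 libraries 7 were lower and 2 higher, median -0.28, beside 1876 lower and 2113 higher of all 14453 genes.

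Of 25 listed genes of the NF-kB pathway itself 24 were tested, and 9 were lower and 3 higher (median -0.17, or -0.02 with 5 lower and 2 higher once the GC and length trend was removed). Over all genes the shares were 16.7% lower and 18.7% higher, with 1741 and 1995 of 13496 once that trend was removed. RELB was at 17.1, 30.3 and 34.1 CPM with siNS, 21.1, 41.9 and 42.9 with siNFKB2, and 2.66, 4.66 and 5.36 with siRELB. Number 1 was the lowest library of each group, the knockdown group included, with nearly equal differences of -0.91, -1.01 and -0.91 in siNS, siNFKB2 and siRELB (log2 difference -0.95 ± 0.10 SE, adjusted p = 0.00022). NFKB2 was at 80.7, 126 and 117 CPM with siNS, 5.26, 22.9 and 48.4 with siNFKB2, and 117, 169 and 168 with siRELB, again lowest in number 1 of each group (log2 difference -1.03 ± 0.30 SE, adjusted p = 0.0184), a call lost with the GC and length trend removed (adjusted p = 0.0803). NFKBIE, an inhibitor of the pathway, fell by 0.69 and the coactivator BCL3 by 0.70, while the adaptor TAB2 of the upstream kinase complex rose by 0.55; the call for BCL3 was lost with that trend removed.

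Genes of metal and redox balance moved in 2 directions. Metallothioneins are small cysteine-rich proteins that bind zinc and copper, and the metal-responsive factor MTF1 drives them through metal response elements, whose core is TGCACNC or TGCGCNC. NRF2 induces glutathione and NADPH genes through antioxidant response elements, whose core is TGACNNNGC and shares its first letters with AP-1 sites (TGANTCA). The promoters of MT2A and MT1X, genes that fell, and of GCLM, which rose, are shown with these cores, on either strand, in capitals; each runs from 250 bases before to 50 after the RefSeq start on GRCh38.p14, 5′ to 3′ along the gene. MT2A lies at chr16:56608334-56608633 on the plus strand, MT1X at chr16:56682220-56682519 on the plus strand and GCLM at chr1:93909381-93909680 on the minus strand.
MT2A: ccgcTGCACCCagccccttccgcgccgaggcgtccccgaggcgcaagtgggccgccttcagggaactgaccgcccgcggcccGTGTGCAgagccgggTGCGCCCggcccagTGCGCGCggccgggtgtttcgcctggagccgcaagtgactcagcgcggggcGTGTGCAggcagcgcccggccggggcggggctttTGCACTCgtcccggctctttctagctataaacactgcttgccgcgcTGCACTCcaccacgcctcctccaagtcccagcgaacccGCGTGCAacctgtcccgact
MT1X: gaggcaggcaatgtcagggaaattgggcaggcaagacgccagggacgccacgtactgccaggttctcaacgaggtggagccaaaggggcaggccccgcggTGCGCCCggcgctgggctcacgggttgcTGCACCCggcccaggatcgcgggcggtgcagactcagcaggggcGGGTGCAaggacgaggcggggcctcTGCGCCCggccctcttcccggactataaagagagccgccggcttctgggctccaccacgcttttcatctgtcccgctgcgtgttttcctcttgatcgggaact
GCLM: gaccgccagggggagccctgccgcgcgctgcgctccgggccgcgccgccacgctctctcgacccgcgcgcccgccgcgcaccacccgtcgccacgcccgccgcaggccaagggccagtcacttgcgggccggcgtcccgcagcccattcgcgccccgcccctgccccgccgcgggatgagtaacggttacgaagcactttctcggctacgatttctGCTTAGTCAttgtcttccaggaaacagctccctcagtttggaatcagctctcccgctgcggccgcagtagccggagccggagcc
MT2A had 8 matches to the metal core (5 on the gene's strand), MT1X 4 (3 on its strand) and GCLM 1 match to the antioxidant core, on the other strand. Of 35116 promoter windows of this length, 29.6% held at least 1 match to the metal core, 0.601% at least 4 and 0.0199% at least 8, and 13.3% held at least 1 match to the antioxidant core. A match is a description of the letters and neither a bound site nor a cause.

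Of 14 listed metallothionein and metal genes 10 were tested, with 5 higher (50%), 3 lower (30%) and a median of 0.26. The shares over all genes tested were 18.7% and 16.7%. MT2A was at 742, 1821 and 1408 CPM with siNS, 1054, 2013 and 2068 with siNFKB2, and 588, 965 and 845 with siRELB. Number 1 was the lowest library in each group (log2 difference -0.89 ± 0.11 SE, adjusted p = 0.000318). MT1E (chr16:56625475-56627112, plus strand) was at 222, 522 and 382 CPM with siNS, 196, 359 and 447 with siNFKB2, and 192, 383 and 342 with siRELB, below all others in number 1 (log2 difference -0.99 ± 0.11 SE, adjusted p = 0.00022), and MT1X, the remaining faller, was at 28.1, 51.8 and 44.2 CPM with siNS, 18.3, 24.7 and 20.6 with siNFKB2, and 21.7, 35.3 and 33.3 with siRELB (log2 difference -0.58 ± 0.11 SE, adjusted p = 0.0022), a gene named after its values were seen. TFRC, the transferrin receptor that imports iron, rose and was at 1242, 728 and 849 CPM with siNS, 626, 329 and 261 with siNFKB2, and 1108, 949 and 934 with siRELB, number 1 highest in each group but by little in siRELB (log2 difference 0.67 ± 0.13 SE, adjusted p = 0.00194). SLC40A1, the iron exporter ferroportin, rose by 0.74. Metallothioneins are near-identical to each other and to pseudogenes, so reads may be split between them.

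Of 22 listed NRF2 targets and genes 20 were tested, and 10 were higher (50%) and 2 lower (10%), with a median of 0.25. All genes tested had 18.7% higher and 16.7% lower. With the GC and length trend removed 9 of the list were higher and 2 lower, beside 1995 and 1741 of all 13496 genes. Without the siRELB libraries the list had 4 and 1, beside 1837 and 1814 of all 14433. GCLM, a subunit of the glutathione-synthesis ligase, was at 43, 20.3 and 27.2 CPM with siNS, 51.2, 41.6 and 32 with siNFKB2, and 53.3, 33.9 and 32.9 with siRELB. Its number 1 values stood above all others (log2 difference 0.67 ± 0.11 SE, adjusted p = 0.00126). Other risers included SLC7A11 (above), NFE2L2 (NRF2 itself), NQO1, TXNRD1, SRXN1, ME1 and the ferritin chains FTL and FTH1, and the fallers TKT and TALDO1 of the pentose pathway (the call for TALDO1 was lost with the GC and length trend removed, adjusted p = 0.716), all but SLC7A11 and TALDO1 named after their values were seen. Of the NRF2-list promoters in the RefSeq table, the antioxidant core was found in 3 of 7 higher genes (GCLM, ME1 and TXNRD1), in 0 of 2 lower and in 2 of 6 not called; the metal core was found in 3 of 4 higher, 2 of 2 lower and 1 of 2 uncalled metal-list promoters.

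Growth-related groups moved in several directions, beside 18.7% higher and 16.7% lower over all genes tested. Of 19 serum-response and immediate early genes 16 were tested, with 7 lower, 1 higher (KLF10) and a median of -0.32. JUN, an AP-1 subunit, was at 96.3, 188 and 236 CPM with siNS, 106, 179 and 174 with siNFKB2, and 123, 175 and 147 with siRELB, all number 1 libraries below all others (log2 difference -0.74 ± 0.13 SE, adjusted p = 0.00116). JUNB fell by 0.98 and CCN1, a secreted CCN protein, by 0.52, as did FOSL1 by 0.59, whose call was lost with the GC and length trend removed (adjusted p = 0.0522). On that scale 3 of 15 were lower and 2 higher, median -0.06, beside 1741 lower and 1995 higher of all 13496 genes.

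Called cell cycle genes were higher in number 1 more often than lower, while the proliferation marker MKI67 fell. Over all genes tested 18.7% were higher and 16.7% lower. MKI67 was at 86.2, 305 and 242 CPM with siNS, 112, 177 and 185 with siNFKB2, and 98.6, 294 and 325 with siRELB. Number 1 was lowest in each group and below all others, by least in siNFKB2 (log2 difference -1.32 ± 0.16 SE, adjusted p = 0.000318). Of 54 G2/M genes, all tested, 18 were higher and 6 lower (median 0.13), and of 42 G1/S genes, all tested, 15 were higher and 3 lower (median 0.11); with upper-quartile scaling, which moved the share of calls that were higher from 52.8% to 44.9%, these counts were 11 and 7, and 11 and 4. The kinetochore proteins CENPF and CENPE fell with MKI67, by 0.59 and 0.57, while ECT2, which drives cytokinesis, rose by 0.63. MCM2 and MCM6, subunits of the replicative helicase, rose by 0.55 and 0.58 and the cyclin CCNE2 by 0.69. The G1/S medians by group were -0.03 in siNS, 0.30 in siNFKB2 and 0.05 in siRELB, and without the siNFKB2 libraries 6 were higher and 5 lower. That fit called 2113 of all 14453 genes higher and 1876 lower. Homologous recombination genes, which repair double-strand breaks, were 16 higher and 3 lower of 49 tested of 52 listed (median 0.12), and 7 and 4 (median 0.00) with the GC and length trend removed. With that trend removed 1995 of all 13496 genes were higher and 1741 lower. BARD1, the partner of BRCA1, was at 45.5, 19.8 and 23.7 CPM with siNS, 25.2, 20.1 and 18.6 with siNFKB2, and 43.7, 28.3 and 28.9 with siRELB, number 1 highest in each group (log2 difference 0.70 ± 0.12 SE, adjusted p = 0.00112). Without siNS 1 the higher and lower counts were 7 and 3 for G2/M, 11 and 0 for G1/S and 8 and 0 for homologous recombination. Calls also dropped over all genes, to 1504 higher and 1139 lower of 15169, beside 2773 and 2479 of 14815 in the main fit.

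Genes of protein synthesis and respiration fell more often than they rose, beside 16.7% lower and 18.7% higher over all genes tested. Of 45 cytosolic ribosomal protein genes 43 were tested, and 21 were lower and 1 higher (median -0.24, with -0.45 in siNS, -0.09 in siNFKB2 and -0.20 in siRELB). RPLP2, an acidic protein of the ribosomal stalk, was at 389.8, 1088 and 892 CPM with siNS, 441, 739 and 817 with siNFKB2, and 395, 634 and 538 with siRELB, all number 1 libraries below the others (log2 difference -0.90 ± 0.13 SE, adjusted p = 0.000605). Nuclear-encoded respiratory chain genes were 19 lower and 1 higher of 42 tested of 46 (median -0.20), and the riser SDHC is a subunit of complex II. COX4I1, a subunit of cytochrome oxidase, was at 270.0, 538 and 395 CPM with siNS, 286, 419 and 444 with siNFKB2, and 268, 382 and 374 with siRELB (log2 difference -0.62 ± 0.10 SE, adjusted p = 0.000946), without overlap. Mitochondrial ribosomal proteins were 11 lower and 1 higher of 28 tested of 29 (median -0.21). After removal of the GC and length trend these 3 lists had 15, 17 and 7 lower and 3, 5 and 1 higher. All 13496 genes in that fit had 1741 lower and 1995 higher. Without siNS 1 the first had 10 lower and the last 4, when 1139 of all 15169 genes were lower, beside 2479 of 14815 in the main fit.

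Lists of lipid and glucose metabolism differed in direction, beside 18.7% higher and 16.7% lower over all genes tested. Cholesterol synthesis genes had 0 higher and 7 lower (30.4%) of 23 tested, and 2 higher and 2 lower with the GC and length trend removed. Glycolysis and hypoxia genes had 2 higher (7.69%) and 3 lower (11.5%) of 26, both below the shares over all genes. Of 11 fatty acid synthesis genes, all tested, 6 were higher and 1 lower (median 0.35). FADS1, a fatty acid desaturase, was at 280.0, 191 and 209 CPM with siNS, 162, 65.3 and 61.7 with siNFKB2, and 266, 215 and 221 with siRELB, with the widest gap in siNFKB2 (log2 difference 0.72 ± 0.14 SE, adjusted p = 0.00261). ACLY, which makes cytosolic acetyl-CoA, rose by 0.35, and the transcription factor SREBF1, an inducer of these enzymes, was the faller, by 0.72. Of 8 genes of glucose sensing 7 were tested, with 4 higher and 1 lower (median 0.44); the arrestin-related ARRDC3 rose by 0.70, and TXNIP, which limits glucose uptake, rose by 0.58, a call lost with the GC and length trend removed. Of 26 genes of TGF-beta and BMP signalling 24 were tested and 10 were higher and 3 lower (median 0.06); the ligand TGFB2 rose by 0.43, the receptors TGFBR2 and TGFBR3 by 0.43 and 0.63 and the repressor SKIL by 0.60, of which the call for TGFB2 was lost with that trend removed.

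**Figure D3:**
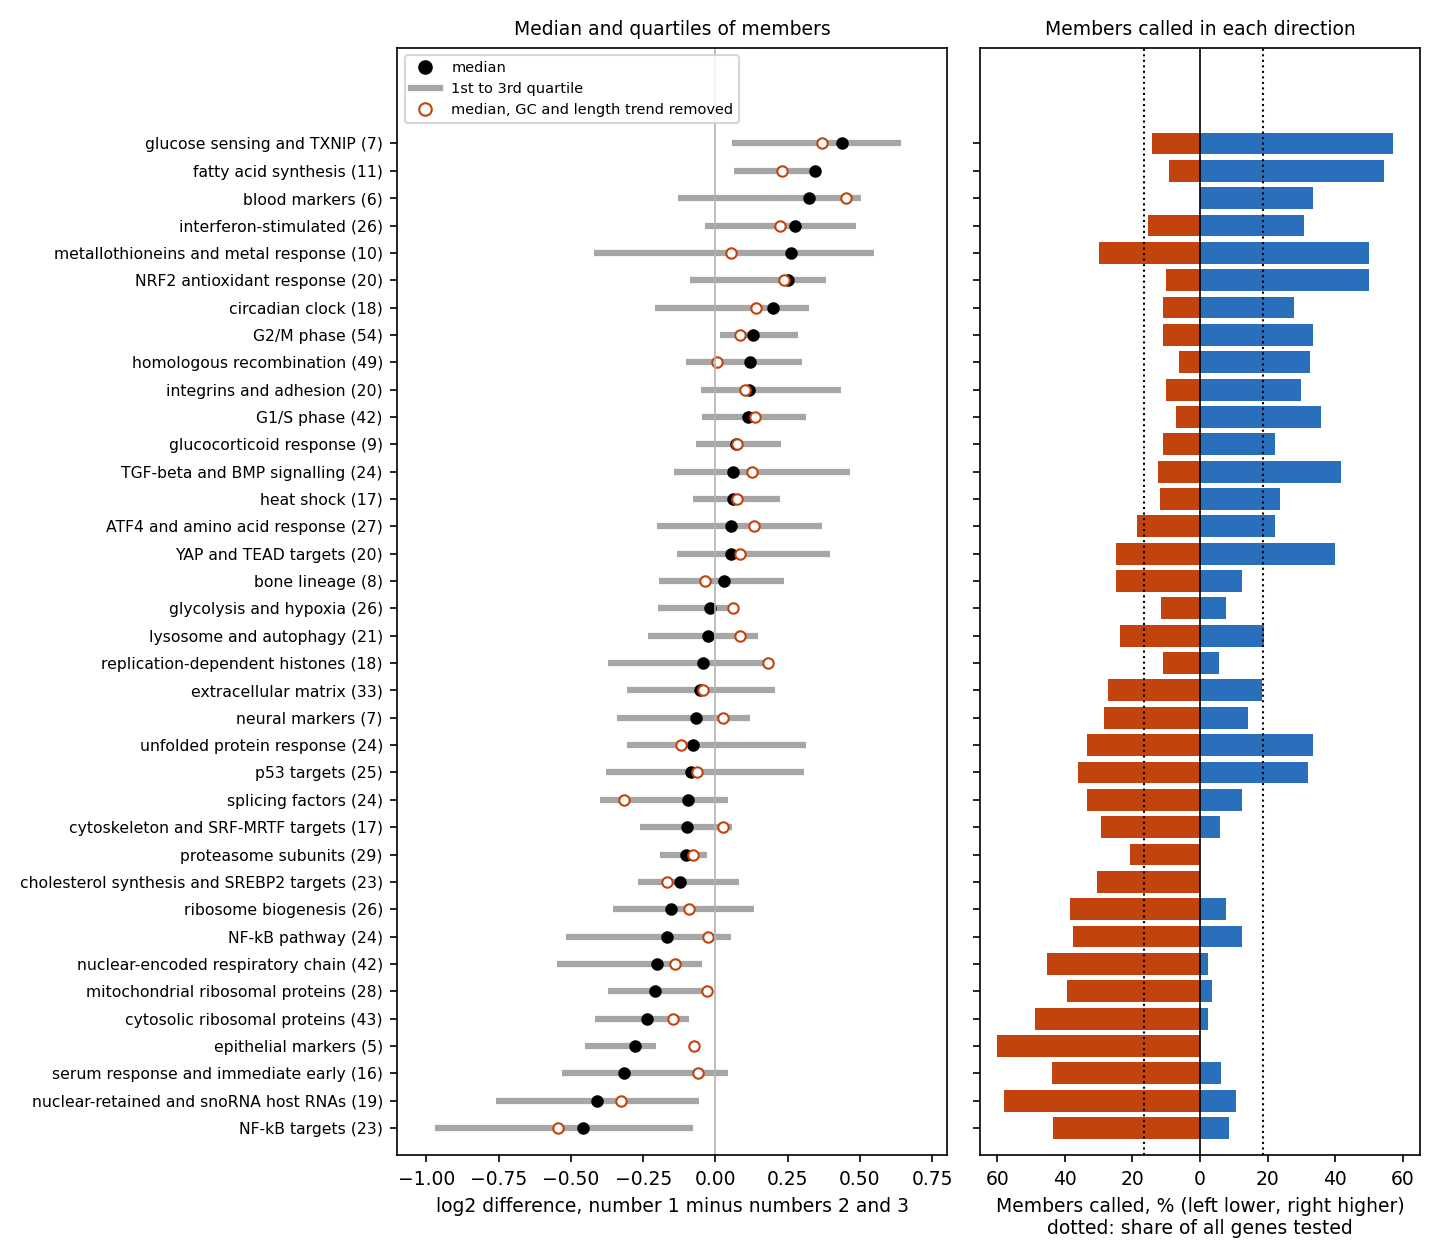
Left, the median and quartiles of the log2 difference of number 1 for each gene list (black and grey), with the median after removal of the GC and length trend in open orange. Right, the percent of tested members called lower or higher, with dotted lines at 16.7% and 18.7% for all genes tested; the nuclear RNA and ribosomal protein lists have 11 of 19 and 21 of 43 members called lower, and the fatty acid synthesis and NRF2 lists 6 of 11 and 10 of 20 called higher.

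The direction of a gene's difference varied with base composition and length. GC content and transcript length were known for 13496 of the tested genes (91.1%). In the lowest GC quintile (29.8% to 40.8% GC) 40.9% of genes were called higher and 4.67% lower, with a median difference of 0.25, and in the highest quintile (57.7% to 75.3%) 2.3% were higher and 40% lower, with a median of -0.30. The shortest quintile of transcripts (64 to 2088 nt) had 4.33% higher and 30.8% lower, and the longest (5971 to 109224 nt) 38.5% higher and 7.71% lower. The median GC was 41.8% among genes called higher and 56.8% among those called lower, and the median length 5188 and 2613 nt. In single libraries, lowest-GC genes lay at a median of 0.25, 0.12 and 0.11 above the group mean (log2) in number 1 of siNS, siNFKB2 and siRELB, and at -0.21 to -0.03 in the others; highest-GC genes lay at -0.34, -0.17 and -0.07 in number 1 and -0.00217 to 0.22 in the others. When a smooth trend in GC content and length was fitted in each library and removed, 3736 genes were called of 13496, 2586 of them among the original calls (49.2% of those), and 271 of the original calls took the opposite sign. GULP1, SLC7A11, MMP9, KISS1, MT2A, MKI67, SRSF5 and CXCL8 kept their call, for example with log2 differences of 1.11 for GULP1, -1.58 for MMP9 and -1.44 for MKI67. SLC7A11 and KISS1 shrank to 0.83 and -1.28. Among all named genes in that fit, 33 lost their call, 2 took the opposite sign and 134 were called or not called as before.

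**Figure D4:**
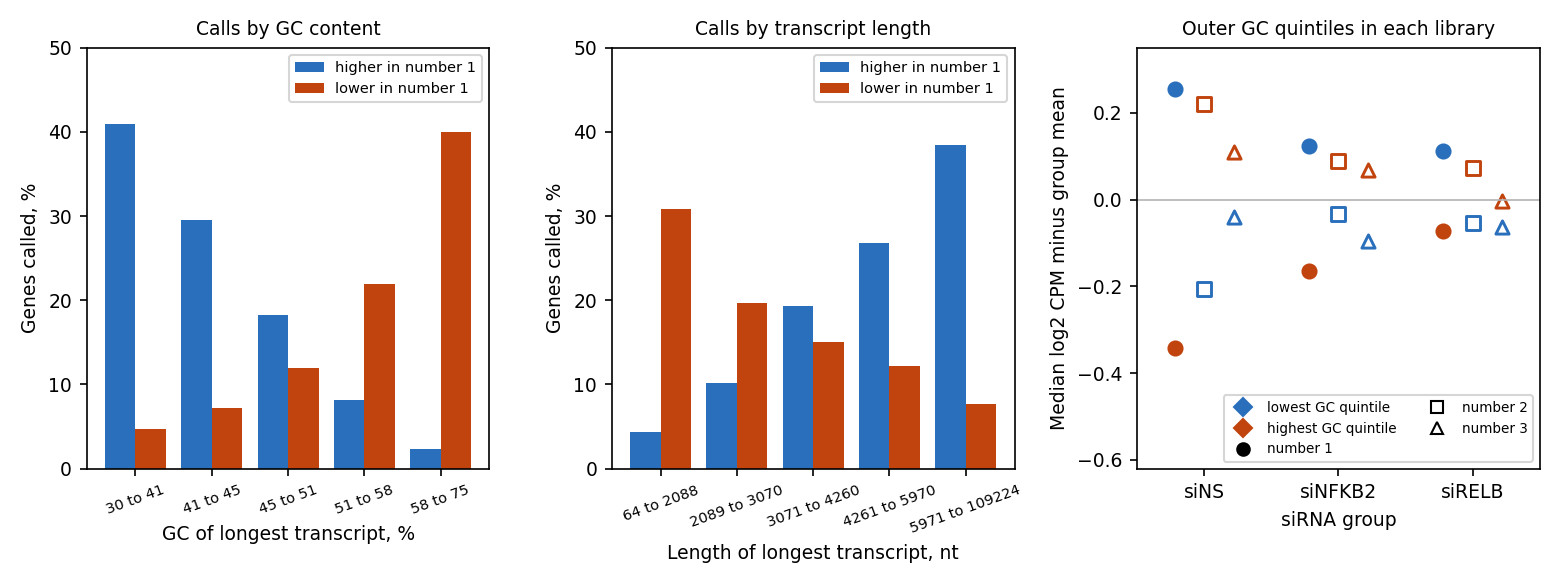
Percent of genes called higher or lower in number 1 by quintile of GC content and of transcript length, and the median log2 deviation of the lowest-GC and highest-GC quintiles in each library. The number 1 libraries are the 3 with the highest medians for low-GC genes, at 0.11 to 0.25.

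The difference of number 1 was not the same in every siRNA group for some genes. A test of the interaction called 70 genes (0.472%), with 2130 at an unadjusted p below 0.05. The difference of number 1 was largest in size in siNFKB2 for 40 of the 70, in siNS for 27 and in siRELB for 3. LAMA5, named after its values were seen, was at 46.1, 104 and 100 CPM with siNS and 38.9, 38.5 and 38.1 with siNFKB2. There siNS 1 was the library that stood apart. In 66 of the 70, numbers 2 and 3 shared a direction between siNFKB2 and siNS, and number 1 was smaller in that direction or reversed. The 70 were chosen because number 1 differed by group, which favours such a form. No share over all genes tested is given, so the 66 are no separate result. ZNF114 was a reversed case, at 87.3 CPM in siNFKB2 1 beside 39.1 in siNS 1. Its siNFKB2 2 and 3 values were 30.6 and 26.7, beside 40.9 and 34.8 with siNS. SUCLG1, a subunit of succinyl-CoA ligase, was at 121, 130.4 and 130.5 CPM with siNS, 54.1, 16.4 and 17.9 with siNFKB2, and 118, 126 and 127 with siRELB. Its level was even everywhere but in siNFKB2, where number 1 stood above numbers 2 and 3 (interaction adjusted p = 0.00378). BIRC3, an inhibitor of apoptosis induced by NF-kB, was at 47.2, 25.3 and 32.1 CPM with siNS, 128, 405 and 372 with siNFKB2, and 34.6, 36.4 and 38.1 with siRELB. It was highest in siNFKB2, with number 1 well below numbers 2 and 3 (interaction adjusted p = 0.00394). TRAF1, an adaptor of TNF receptors, had the same form, at 14.7, 14.8 and 17.1 CPM with siNS, 68.8, 317 and 266 with siNFKB2, and 24.6, 47.8 and 47.1 with siRELB (interaction adjusted p = 0.0128). MAP4, a microtubule-binding protein, was lowest in siNFKB2, with number 1 above numbers 2 and 3, at 419, 438 and 435 CPM with siNS, 236, 82.1 and 90.6 with siNFKB2, and 404, 354 and 375 with siRELB (interaction adjusted p = 0.00964). VGF, a secreted neuropeptide precursor, was at 37, 122 and 134 CPM with siNS, 142, 169 and 159 with siNFKB2, and 48.6, 60.1 and 54.7 with siRELB, low in siNS 1 and near even in siNFKB2 (interaction adjusted p = 0.00964). The count of 70 is fragile: leaving out 1 library at a time gave 2 (without siRELB 3) to 906 (without siNS 3), and DESeq2 gave 353 and limma-voom 41.

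**Figure D5:**
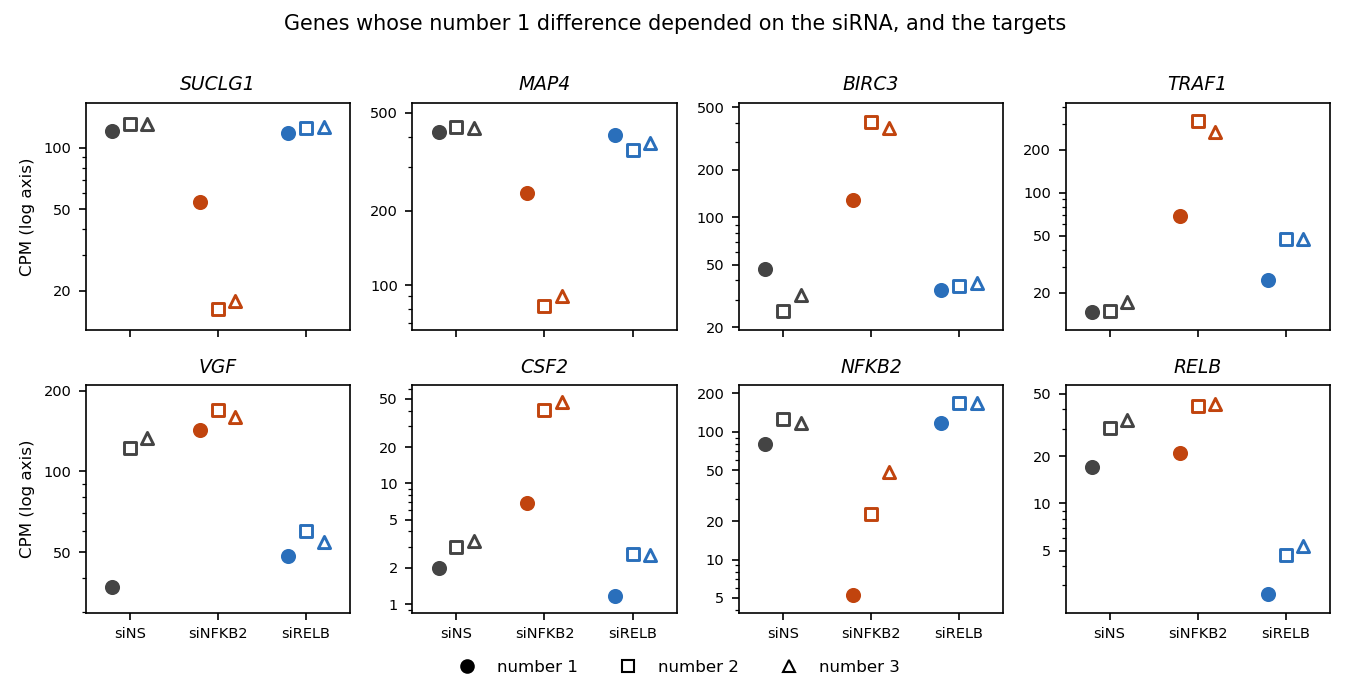
CPM (log axis) of 8 genes by siRNA group and replicate number, with filled circles for number 1. SUCLG1, MAP4, BIRC3, TRAF1 and CSF2 have number 1 of siNFKB2 nearest to siNS, while NFKB2 itself is lowest in number 1 of siNFKB2.

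Among genes called between siRNA groups, median differences were smaller in number 1 than in numbers 2 and 3. Within siNS alone, number 1 against 2 and 3 called 4095 genes (27.6%), within siNFKB2 2050 (13.8%) and within siRELB 141 (0.952%), each from 1 library against 2 with the spread taken from all groups. Against siNS, siNFKB2 called 3869 genes (26.1%) with no term for number 1 and 6382 (43.1%) with it, and siRELB 299 (2.02%) and 2086 (14.1%), and all genes called without the term were called with it. Both comparisons share the siNS libraries. Among the genes called with the term, chosen after seeing the data and from all 9 libraries, the median siNFKB2 rise was 0.45, 0.75 and 0.64 in numbers 1, 2 and 3 for 3175 genes and the fall -0.49, -0.79 and -0.78 for 3207. For siRELB the medians were 0.41, 0.74 and 0.63 for 1156 rises and -0.33, -0.66 and -0.63 for 930 falls. Taken in the called direction, the change was smallest in number 1, or reversed there, for 62% and 67.3% of the siNFKB2 genes. For the siRELB genes these shares were 74% and 76.5%. The change was largest in number 1 for 11.6% and 8.92% of the siNFKB2 genes and 9.43% and 8.82% of the siRELB genes. All of these shares cover called genes only, and none is given for all genes tested. NFKB2 itself stood at 6.52%, 18.1% and 41.3% of siNS in numbers 1, 2 and 3 of siNFKB2, and the part of the remaining target RNA in these medians was not tested. For the listed NF-kB targets the medians in numbers 1, 2 and 3 were 1.14, 2.13 and 1.87 for siNFKB2 and 0.16, 0.32 and 0.13 for siRELB, where number 3 and not number 1 was the smallest. For homologous recombination genes they were -0.35, -0.41 and -0.49 for siNFKB2 and -0.08, 0.08 and 0.03 for siRELB, which differed in sign.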

How the data were processed

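The deposited files hold whole-number read counts per gene entry, not normalized by the authors, 1 file per library. Per the submitters' processing notes, Trimmomatic 0.38, STAR 2.7.1a, Subread 1.6.4 and the build GRCh38.p13 were used; the sources used here do not give their roles, settings or use of strand. Each file lists 44608 entries, and 5005 are suffixed as extra placements of 2652 genes; these took at most 0.0369% of counts and were kept apart (CANX and BOP1 are affected). Some abundant genes are listed at or near 0 (LDHA 3 counts over all libraries, RPL7A 3, NDUFS1 0) and were not tested. Genes passing edgeR's filterByExpr by siRNA group (14815) were scaled by TMM and fitted with glmQLFit on the siRNA group and a term for number 1 (R 4.3.3, edgeR 4.0.16), and adjusted p-values are Benjamini-Hochberg over all tested genes. The SE is the log2 difference divided by the square root of its F statistic. Interaction terms, numbers 2 against 3 and single groups used the same fit family. Single library measures used exact permutation within siRNA groups. Alternatives used DESeq2 1.42.0, limma 3.58.1, upper-quartile scaling, other filters, a GC and length trend, a mitochondrial rRNA covariate, a replicate block and left-out libraries. Gene positions, types, GC content and length come from GENCODE 29 on GRCh38, and promoters from RefSeq on GRCh38.p14.

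Libraries were grouped by their labels. The genes, comparisons and 37 gene lists were chosen with earlier results of these data known. Named genes were the 15 largest rises and falls (called, averaging 5 CPM or more, with number 1 on the same side in every group), the 4 called members per list that had the lowest adjusted p-values, NFKB2 and RELB, and the 5 smallest interaction p-values; exceptions are marked. On simulated counts for 14815 genes the test of number 1 recovered 61 of 100 genes changed 1.5-fold and 79 of 100 changed 2-fold, with 15 calls among 14615 unchanged genes. Only these few genes were changed, beside 35.5% called in the data, and each gene was drawn independently of the others. These rates therefore do not measure recovery or false calls in the data.

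A few genes are not reported here.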

Additional observations from a re-analysis of the deposited data

Results flagged for a closer look

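For 3 of 180 values tested over the 6 libraries numbered 2 or 3, 1 library stood apart from the rest. Chance alone gives about 1 in 20 only when the 6 libraries are alike in kind. These came from 3 siRNA groups whose differences were not removed, so that rate does not apply here. The gap to the next library was 0.658 of the range for the mitochondrial rRNA share (siNFKB2 3), 0.654 for FAM95A (siNS 2) and 0.640 for CLK4 (siNFKB2 3).

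The difference of number 1 varied between the siRNA groups, by edgeR's interaction test, for 8 genes named here. The interaction adjusted p was 0.00378 for SUCLG1, 0.00394 for BIRC3, 0.00964 for VGF and for MAP4, 0.0128 for TRAF1, 0.0384 for GPNMB, 0.0401 for FADS1 and 0.0453 for CSF2. In siNFKB2 the log2 difference was 2.02 for GPNMB, 1.35 for FADS1 and -2.65 for CSF2, beside 0.95, 0.48 and -0.67 in siNS and 0.98, 0.28 and -1.13 in siRELB.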

How the results depend on the processing

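Under DESeq2, limma-voom, upper-quartile scaling, no count filter, a minimum mean of 5 CPM and summed entries, 4712 to 5474 genes were called, beside 5252. Without the siRNA term 4 were called (3 higher, 1 lower), and with the mitochondrial rRNA covariate 1 (0 and 1). Leaving out 1 library at a time gave 2643 to 5247 (1504 to 2761 higher, 1139 to 2486 lower), leaving out number 2 gave 3275 (1702 and 1573), number 3 2227 (1094 and 1133), siNS 3025 (1654 and 1371) and the siRELB libraries 1837 higher. With the siRNA comparisons, adding a number 1 term gave 6382 (siNFKB2) and 2086 (siRELB).

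By the correlation of deviations from group means across genes, the 3 number 1 pairs reached 0.535 to 0.594, but number 2 pairs went as low as 0.0545 and number 3 pairs 0.0439, so not every number pairs its libraries; siNS 2 correlated best with siNFKB2 3 (0.569). A replicate block with 3 levels gave 4622 calls for number 1, of which 4619 were among the 5252, and 5944 and 1570 for siNFKB2 and siRELB against siNS.

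The interaction count of 70 was 353 with DESeq2 (likelihood ratio test), 41 with limma-voom, 667 with no filter, and 2 to 906 with 1 library left out; leaving out a number 1 library could not be estimated. Signs reversed, with the cause not tested, for HIST1H1C (0.052) and PSMA7 (0.041) with the GC and length trend removed, and for SUCLG1 (-0.10) and BIRC3 (0.32) without siNFKB2 1 and (-0.10 and 0.33) without the siNFKB2 libraries. SUCLG1 passed the threshold without siRELB 1 (0.80) and BIRC3 without siNS 1 (-0.85). In simulated counts, with few genes changed and each drawn independently, 61 of 100 changes of 1.5-fold were recovered. Recovery was not split by level or depth.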

Other observations

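Several further gene lists had members called in both directions, beside 18.7% higher and 16.7% lower over all genes tested. Of 20 YAP and TEAD targets, all tested, 8 were higher and 5 lower (median 0.05); TEAD1, the DNA-binding partner of YAP, rose by 0.73 and the Golgi kinase-like FJX1 fell by 0.85. Of 33 extracellular matrix genes tested 6 were higher, a share near that of all genes, and 9 lower (median -0.05), with the fibrillin FBN2 up by 0.68 and the protease inhibitor TIMP1 down by 0.94. The unfolded protein response had 8 higher and 8 lower of 24 tested. The chaperone cofactors CRELD2 and DNAJB11 were lower by 0.76 and 0.49, and CANX, a gene with extra placements, was higher by 0.89. The p53 targets had 8 higher and 9 lower of 25, with the nucleotide reductase subunit RRM2B up by 0.63 and the apoptosis inducer BBC3 down by 0.81, a call lost with the GC and length trend removed.

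Of 26 interferon-stimulated genes tested, 8 were higher and 4 lower (median 0.28); SAMD9 rose by 0.83 and IFI6 fell by 0.81, and with upper-quartile scaling the counts were 5 and 5. Among 18 clock genes tested 5 were higher, with NR1D2, a nuclear receptor of the clock, up by 0.75 and CLOCK by 0.64, and 2 lower. With the GC and length trend removed, cholesterol synthesis genes had 2 higher and 2 lower. Of 20 integrin and adhesion genes 6 were higher and 2 lower (median 0.12). In the bone lineage list, SPP1 (osteopontin) rose by 0.90 and ALPL, the bone phosphatase, fell by 0.98.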
